A study of Mus musculus with 16 samples.

Results

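Lysosome and autophagy genes of MC38 cells, a mouse colon adenocarcinoma line, were described in cells labelled WT and cells labelled Ythdf2-KO. The genes were 39 named members, found by symbol in a deposited count table of 55401 genes, and each member had 1 row there. They were 5 lysosomal membrane proteins, 6 proteases, 7 glycosidases, 5 lipid-handling proteins, 3 subunits of the proton pump, 3 transcription factors and 10 autophagy proteins. The series held 16 libraries: input RNA of WT cells (3) and of Ythdf2-KO cells (3), m6A immunoprecipitates of each genotype (3 and 3), and YTHDF2 RNA immunoprecipitates (RIP) of WT cells with their inputs (2 and 2). Counts covered the 6 input libraries, and 1 peak list each covered the m6A of WT cells, the m6A of Ythdf2-KO cells and the YTHDF2 RIP. Sample titles tag the WT cells gNC and the Ythdf2-KO cells gY2. All cells were cultured in DMEM with serum and antibiotics, and no other treatment, time or allele is labelled. The labels do not say whether the Ythdf2-KO cells were 1 clone or a pool, or whether replicates were separate cultures, so p-values measure only the spread between these libraries, which may be technical.

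Lysosomes degrade proteins, glycans and lipids with acid hydrolases, in a lumen acidified by the vacuolar proton pump (V-ATPase). Autophagy delivers cytoplasmic material to them in double-membrane vesicles, and many of the genes for both are driven by the related transcription factors TFEB, TFE3 and MITF, which bind an E-box motif in their promoters. N6-methyladenosine (m6A) is a base modification of mRNA, and YTHDF2 is a protein that binds it and recruits deadenylases, which shortens the life of the bound transcript. Degradation of antigens by lysosomal proteases is a setting in which m6A-binding proteins have been studied.

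Total counts were 45441281 to 50959555 per input library, at which 3 reads, the level a count of 0 still allows, equal 0.0582 to 0.0652 CPM, counts scaled to a common library total. Ythdf2 itself was at 55.6, 68.6 and 59.7 CPM in WT. The libraries labelled Ythdf2-KO had 67.9, 59.8 and 61.5 CPM of it, with no call (edgeR adjusted p = 0.809, log2 fold change 0.04 with an SE of 0.10). Whole-gene counts do not check an edited site, so these libraries are called KO-labelled and every direction rests on the labels. KO-labelled replicate 1 stood apart: on a first principal component with 51.4% of the variance, the WT libraries were at -39.2 to -38.6, KO-labelled replicate 1 at -10.4, and KO-labelled replicates 2 and 3 at 64.1 and 63.2. Counts of called members are therefore also given without it. Of 8 epithelial markers, 1 was tested, their summed level was 0.554 to 1.06 CPM, and Epcam and Krt18 were at 0 in every library. Of 12 leukocyte and macrophage markers, 4 were tested with none called, and 2 (Lyz2 and Cd79a) were called lower without KO-labelled replicate 1 (summed level 35.5 to 42.3 CPM in WT and 30.2 to 37.5 CPM in KO-labelled libraries, Adgre1 at 0 in all). Of 9 fibroblast and endothelial markers, 8 were tested and 1, Dcn, was called lower. Without KO-labelled replicate 1, 5 of them were called lower (Col1a1, Col1a2, Col3a1, Dcn and Lum) and 2 higher (Pdgfra and Cdh5) (summed level 2069 to 2621 CPM in WT, 2575 CPM in KO-labelled replicate 1, and 1479 and 1504 CPM in replicates 2 and 3). Their part in the results was not tested.

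Levels of the genes were compared with each other per kilobase of annotated exon, since longer transcripts collect more reads. Sqstm1, the autophagy receptor that carries ubiquitinated cargo, was the highest at 453 ± 26.1 CPM per kilobase in WT (SD, n = 3). Lamp1 (333 ± 16.6), Ctsz (319 ± 5.15), Psap (312 ± 4.34), Ctsl (291 ± 11.5) and Ctsd (250 ± 11.4 CPM per kilobase) followed, that is, a membrane glycoprotein, 3 cathepsins and the precursor of the saposins. The lowest were Cln3 at 0.131 ± 0.0526, Atg9b at 1.34 ± 0.243, Mitf at 1.62 ± 0.0397 and Tfeb at 2.48 ± 0.0419 CPM per kilobase. Tfe3, at 10.2 ± 0.399 CPM per kilobase in WT, was the highest of the 3 transcription factors. The order by level is plotted for both genotypes.

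**Figure D1:**
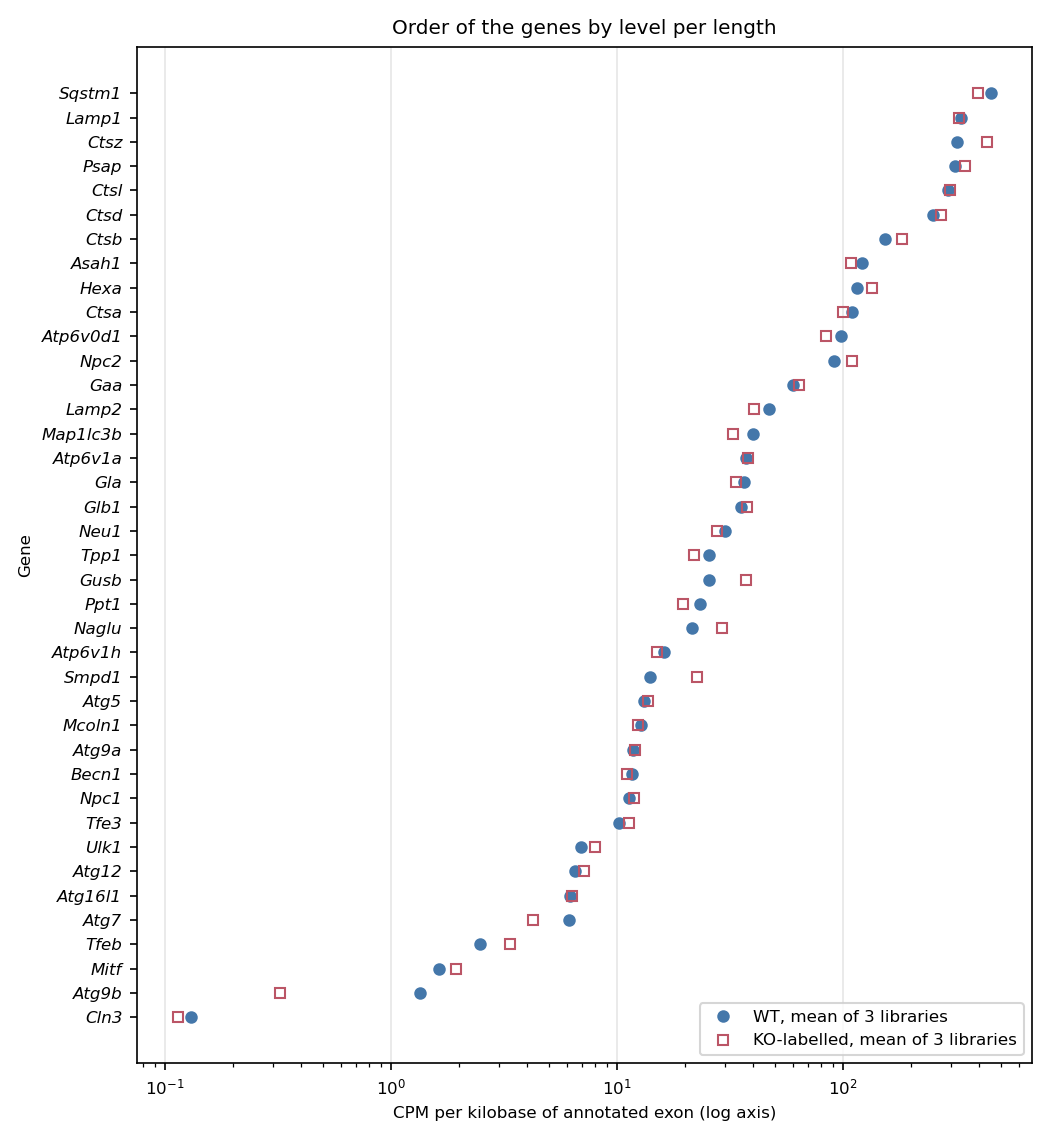
Mean level of each of the 39 genes in CPM per kilobase of exon (log axis), for 3 WT libraries (filled circles) and 3 KO-labelled libraries (open squares), ordered by the WT level. The genes run from 0.131 CPM per kilobase for Cln3 to 453 for Sqstm1, and Atg9b shows the widest gap between the symbols.

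All 39 genes passed the filter on low counts. In the comparison of KO-labelled with WT input, 3 genes rose (Smpd1, Gusb and Naglu), 2 fell (Atg7 and Atg9b) and 34 were not called by edgeR's quasi-likelihood test at an adjusted p of 0.05. The called share was 7.69% higher and 5.13% lower, against 2.99% higher and 1.54% lower of the 18969 genes tested, and counts of 3 and 2 genes are too few to read as a difference from that background. The median log2 fold change of the 39 was 0.03, against -0.01 for all genes tested, and 35 of the 39 (89.7%) lay within 0.5 of 0, against 74.6% of all genes and 87.0% of genes at a mean of at least 10 CPM. Over all genes, 568 were higher and 293 lower. With upper-quartile scaling the split was 348 higher and 395 lower. That scaling moved the median of all genes to -0.09, and the 5 called genes kept their directions under it.

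The values of the groups did not overlap for 10 genes that were higher in the KO-labelled libraries (25.6%, against 17.7% of all genes tested) and for 6 that were lower (15.4%, against 16.2%). Without KO-labelled replicate 1, 12 of the 39 rose and 7 fell, shares of 30.8% and 17.9%, where 19.3% and 16.1% of 19551 genes were called in those directions. That fit set the KO-labelled replicates 2 and 3 against WT, and its larger background applies to every count taken from it. Fewer cells of a kind and less RNA per cell cannot be told apart in such bulk libraries.

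**Figure D2:**
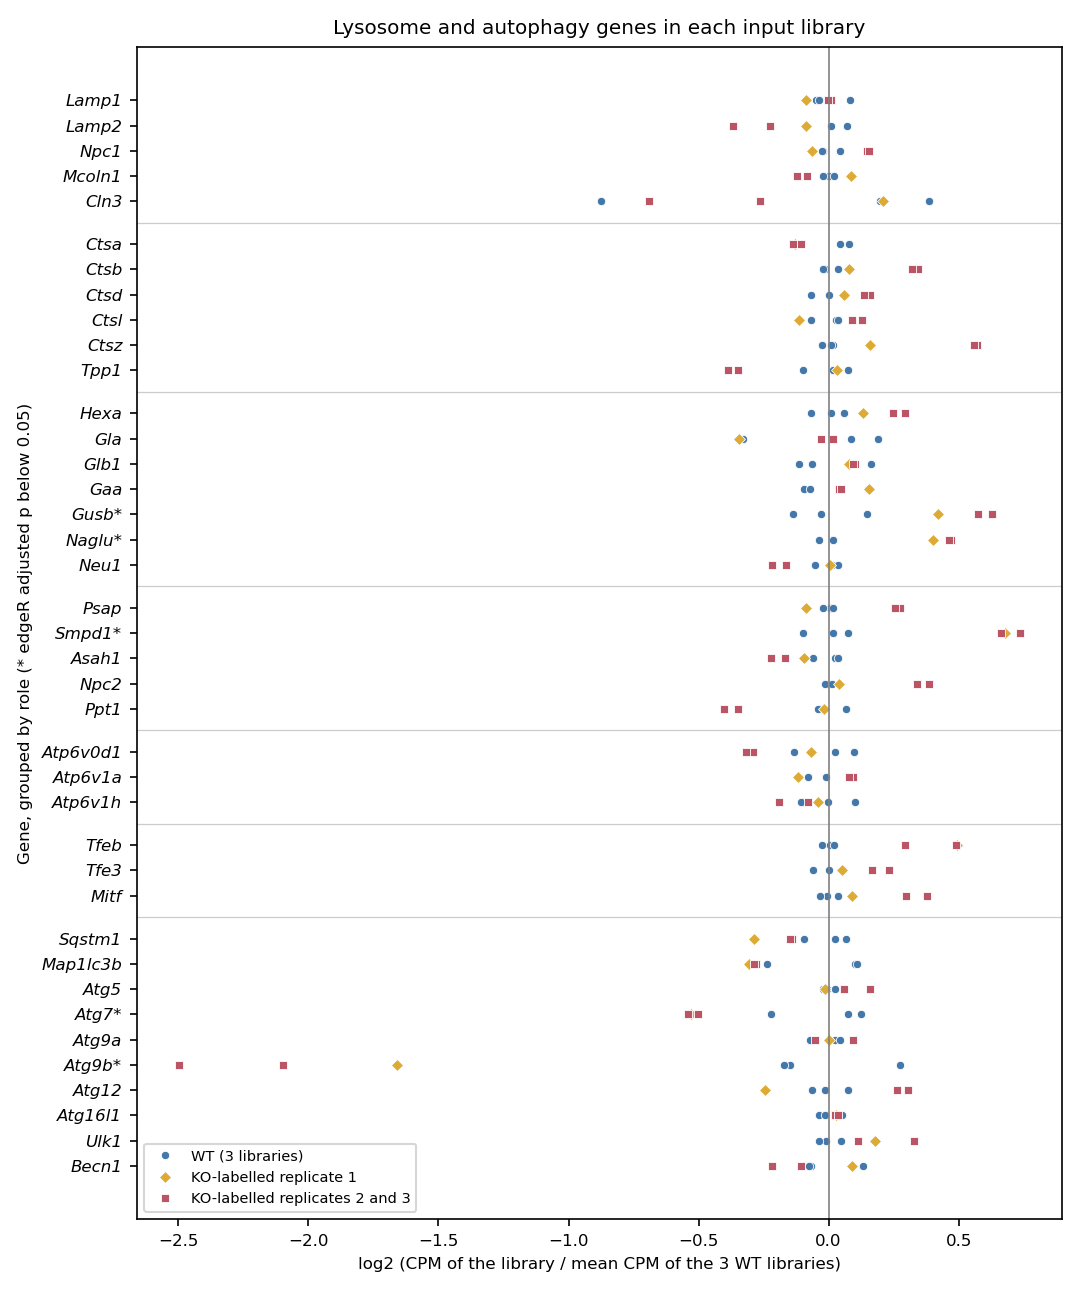
Level of each gene in each input library, as the log2 ratio to its mean over the 3 WT libraries, grouped by role; circles are WT, diamonds KO-labelled replicate 1 and squares KO-labelled replicates 2 and 3. Most points lie within 0.5 of 0, Smpd1 stands apart to the right in all 3 KO-labelled libraries, and Atg9b to the left.

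None of the 6 proteases was called. These enzymes cleave proteins in the lysosome lumen: Ctsb, Ctsl and Ctsz are cysteine cathepsins, Ctsd is an aspartic protease, Ctsa a serine carboxypeptidase and Tpp1 removes tripeptides. Their median log2 fold change was 0.08, from -0.22 for Tpp1 to 0.44 for Ctsz. Ctsz was at 465, 463 and 451 CPM in WT and at 513, 683 and 677 CPM in KO-labelled libraries (log2 fold change 0.44 with SE 0.11, edgeR adjusted p = 0.0657). All 3 KO-labelled values lay above WT, with replicate 1 closest to WT, and without that replicate the log2 fold change was 0.57 (edgeR adjusted p = 0.000661). Ctsb, also without overlap between the groups, was at 951, 917 and 912 CPM in WT and 978, 1177 and 1157 CPM in KO-labelled libraries (log2 fold change 0.25 with SE 0.08, edgeR adjusted p = 0.105; without replicate 1, 0.33 and adjusted p = 0.0057). Ctsl, the member with most reads, was at 1801, 1926 and 1933 CPM in WT and 1743, 2061 and 2011 CPM in KO-labelled libraries (log2 fold change 0.04 with SE 0.08, edgeR adjusted p = 0.778). Its groups overlapped, and the sign turned with upper-quartile scaling (-0.05). Ctsd was at 560.4, 614 and 589 CPM in WT and 612, 657 and 645 CPM in KO-labelled libraries (log2 fold change 0.12 with SE 0.07, edgeR adjusted p = 0.28). The groups overlapped here as well. Tpp1 was called lower in the fit without KO-labelled replicate 1 (log2 fold change -0.37, edgeR adjusted p = 0.0063), in which Ctsz and Ctsb were the 2 proteases called higher.

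Of the 7 glycosidases, which remove sugars from glycans and glycolipids, 2 rose and none fell, with a median log2 fold change of 0.09. Gusb (ENSMUSG00000025534.17, chromosome 5, 129989011 to 130003049, minus strand, mm10) encodes beta-glucuronidase, which acts on glycosaminoglycans. Its level was 128, 114 and 105 CPM in WT and 155, 179 and 172 CPM in KO-labelled libraries, with every KO-labelled value above every WT value (log2 fold change 0.54 with SE 0.10, edgeR adjusted p = 0.0353). Naglu (ENSMUSG00000001751.9, chromosome 11, 101070012 to 101077672, plus strand) encodes alpha-N-acetylglucosaminidase, which acts on heparan sulfate. It was at 55.5, 57.6 and 57.6 CPM in WT and 75.2, 78.8 and 78.5 CPM in KO-labelled libraries (log2 fold change 0.45 with SE 0.06, edgeR adjusted p = 0.0273). The libraries within each genotype were close to each other, and replicate 1 was with the other KO-labelled libraries.

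Both calls held in only 1 of the 6 fits that left out a single library, the one without KO-labelled replicate 1 (edgeR adjusted p = 0.00207 for Gusb and 0.000959 for Naglu). Without any other library the adjusted p ran from 0.0521 (WT replicate 1) to 0.176 (WT replicate 3) for Gusb and from 0.0528 (WT replicate 1) to 0.171 (WT replicate 3) for Naglu, and the fold changes kept their sign. Those 5 fits called few genes anywhere: 93 of 19539 without WT replicate 1, 0 of 19733 without WT replicate 2, 5 of 19469 without WT replicate 3, 4 of 19592 without KO-labelled replicate 2, and 1 of 19628 without KO-labelled replicate 3. Hexa, a subunit of beta-hexosaminidase, was at 239, 231 and 219 CPM in WT and 252, 281 and 273 CPM in KO-labelled libraries. Its groups did not overlap (log2 fold change 0.23 with SE 0.07, edgeR adjusted p = 0.101), and without KO-labelled replicate 1 it was called higher (0.27, adjusted p = 0.0187). The 4 other glycosidases had log2 fold changes of -0.12 for the sialidase Neu1, -0.11 for Gla (alpha-galactosidase), 0.08 for Gaa (acid alpha-glucosidase) and 0.09 for Glb1 (beta-galactosidase). Of these, Neu1 alone was called in the fit without KO-labelled replicate 1 (log2 fold change -0.19, edgeR adjusted p = 0.0423).

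Smpd1 had the largest rise of all 39 genes. It encodes acid sphingomyelinase, which releases ceramide from sphingomyelin (ENSMUSG00000037049.9, chromosome 7, 105554360 to 105558389, plus strand). Its level was 49.4, 43.8 and 47.5 CPM in WT and 75.0, 74.2 and 78.1 CPM in KO-labelled libraries, so that the groups stood well apart and replicate 1 was among the other KO-labelled libraries (log2 fold change 0.69 with SE 0.08, edgeR adjusted p = 0.0164). The call held without WT replicate 1 (adjusted p = 0.0409) and without KO-labelled replicate 1 (0.000498), and was lost without any of the other 4 libraries, from 0.0860 (KO-labelled replicate 2) to 0.132 (WT replicates 2 and 3). Asah1, the acid ceramidase that acts on the product of Smpd1, was at 416, 419 and 393 CPM in WT and 383, 365 and 351 CPM in KO-labelled libraries. Its groups did not overlap, with the lower values in the KO-labelled libraries (log2 fold change -0.16 with SE 0.07, edgeR adjusted p = 0.168).

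The other 3 lipid-handling genes were not called with all 6 libraries. Npc2, the soluble carrier that hands cholesterol to Npc1, was at 495, 489 and 499 CPM in WT and 508, 646 and 626 CPM in KO-labelled libraries (log2 fold change 0.26 with SE 0.10, edgeR adjusted p = 0.131). Psap, which is cut into the saposins that present lipids to hydrolases, was at 860, 865 and 842 CPM in WT and 806, 1035 and 1020.5 CPM in KO-labelled libraries (log2 fold change 0.16 with SE 0.10, edgeR adjusted p = 0.344). Replicate 1 lay just above WT for Npc2 and below it for Psap, while replicates 2 and 3 lay above WT for both. Without replicate 1 both were called higher (edgeR adjusted p = 0.0039 for Npc2 and 0.0138 for Psap). Ppt1, a thioesterase that removes fatty acids from proteins, had the opposite sign (log2 fold change -0.24, adjusted p = 0.187) and was called lower without replicate 1 (-0.37, adjusted p = 0.0037).

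The 5 membrane proteins gave no call, with a median log2 fold change of -0.04 and a range from -0.22 to 0.08. Lamp1, a glycoprotein that lines the lysosome membrane, was at 863, 943 and 869 CPM in WT and 839.9, 897 and 890.4 CPM in KO-labelled libraries. The groups overlapped (log2 fold change -0.03 with SE 0.07, edgeR adjusted p = 0.829). Its relative Lamp2 was at 473, 453 and 424 CPM in WT and 424, 385 and 349 CPM in KO-labelled libraries, a separation of under 1 CPM between the closest libraries (log2 fold change -0.22 with SE 0.09, edgeR adjusted p = 0.154; without replicate 1, -0.29 and 0.0265). Mcoln1, a calcium channel of the lysosome, and the cholesterol transporter Npc1 had log2 fold changes of -0.04 and 0.08. Cln3, a membrane protein mutated in juvenile Batten disease, was near the floor of the filter at 0.413 to 0.990 CPM in WT and 0.468 to 0.874 CPM in KO-labelled libraries. Of the 3 V-ATPase subunits none was called. The catalytic subunit Atp6v1a had a log2 fold change of 0.02, Atp6v1h of -0.10 and Atp6v0d1, of the membrane sector, of -0.22 (edgeR adjusted p = 0.182; without replicate 1, -0.30 and 0.0258).

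The 3 transcription factors had positive log2 fold changes that did not pass edgeR's test with all 6 libraries. Tfeb was at 13.8, 14.1 and 14.3 CPM in WT and 19.8, 17.3 and 19.8 CPM in KO-labelled libraries, with replicate 1 among the highest (log2 fold change 0.43 with SE 0.10, edgeR adjusted p = 0.0575). Mitf was at 10.3, 10.0 and 9.84 CPM in WT and 10.7, 12.4 and 13.1 CPM in KO-labelled libraries (log2 fold change 0.26 with SE 0.12, edgeR adjusted p = 0.206). Tfe3 was at 94.6, 98.0 and 90.6 CPM in WT and 97.9, 106 and 111 CPM in KO-labelled libraries (log2 fold change 0.15 with SE 0.07, edgeR adjusted p = 0.216). DESeq2 on the same 6 libraries called Tfeb higher (adjusted p = 0.00269), as it did Ctsz (0.00697) and Hexa (0.0384), where it called 11.6% of all genes tested higher and 7.02% lower. The groups did not overlap for Tfeb and Mitf and overlapped by 1 library for Tfe3. Without KO-labelled replicate 1 all 3 were called higher (edgeR adjusted p = 0.0185 for Tfeb, 0.0362 for Mitf and 0.0381 for Tfe3).

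Of the 10 autophagy genes 2 fell and none rose, with a median log2 fold change of -0.03. Atg7 (ENSMUSG00000030314.16, chromosome 6, 114643097 to 114860614, plus strand) encodes the enzyme that activates the ubiquitin-like proteins of autophagosome formation. Its level was 36.5, 46.4 and 44.8 CPM in WT and 29.5, 29.3 and 30.0 CPM in KO-labelled libraries (log2 fold change -0.52 with SE 0.11, edgeR adjusted p = 0.0441). The 3 KO-labelled values lay within 1 CPM of each other and below every WT value. The call held without WT replicate 1 (adjusted p = 0.0490) and without KO-labelled replicate 1 (0.0102), and was lost without any other library, from 0.167 (KO-labelled replicate 2) to 0.199 (WT replicate 3).

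Atg9b (ENSMUSG00000038295.14, chromosome 5, 24384181 to 24392143, minus strand), 1 of 2 members that encode a lipid scramblase of the growing autophagosome, had the largest change. It was at 4.76, 4.69 and 6.38 CPM in WT and 1.67, 0.935 and 1.23 CPM in KO-labelled libraries, all far above 3 reads (log2 fold change -2.04 with SE 0.26, edgeR adjusted p = 0.0227). The call held without KO-labelled replicate 1 (0.000475) and was lost without any other library, from 0.0521 (WT replicate 1) to 0.152 (WT replicate 3). Its exons share 294 bases (7.45%) with Nos3 on the opposite strand, and as no source used here gives the strand setting of the counts, reads of the shared part cannot be assigned. Nos3 was at 8.29, 6.67 and 6.81 CPM in WT and 6.90, 4.23 and 4.32 CPM in KO-labelled libraries (log2 fold change -0.49 with SE 0.23, edgeR adjusted p = 0.196). Its paralog Atg9a, at 11.8 CPM per kilobase in WT against 1.34 for Atg9b, was at 64.8, 69.3 and 70.1 CPM in WT and 68.2, 65.7 and 72.7 CPM in KO-labelled libraries (log2 fold change 0.02 with SE 0.07, edgeR adjusted p = 0.902).

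Sqstm1 was at 1422, 1592 and 1545 CPM in WT and 1245, 1379 and 1372 CPM in KO-labelled libraries. The groups did not overlap, but the difference was not called (log2 fold change -0.19 with SE 0.07, edgeR adjusted p = 0.142). Map1lc3b, the ubiquitin-like protein that is joined to autophagosome membranes, had the same pattern at 254, 320.5 and 323 CPM in WT and 242, 246 and 245 CPM in KO-labelled libraries (log2 fold change -0.29 with SE 0.10, edgeR adjusted p = 0.115). Ulk1, the kinase that starts autophagy, was at 44.4, 43.7 and 46.3 CPM in WT and 50.7, 48.5 and 56.2 CPM in KO-labelled libraries, without overlap (log2 fold change 0.21 with SE 0.08, edgeR adjusted p = 0.15). Atg5, Atg12 and Atg16l1, which form the conjugation complex downstream of Atg7, had log2 fold changes of 0.07, 0.13 and 0.03. Becn1, of the lipid kinase complex that marks the forming membrane, had -0.07. Atg12 was called higher without KO-labelled replicate 1 (0.28, edgeR adjusted p = 0.014), since that replicate, at 42.4 CPM, lay below the WT libraries (48.1, 52.9 and 49.9 CPM) while the other KO-labelled libraries lay above them (60.3 and 62.1 CPM).

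**Figure D3:**
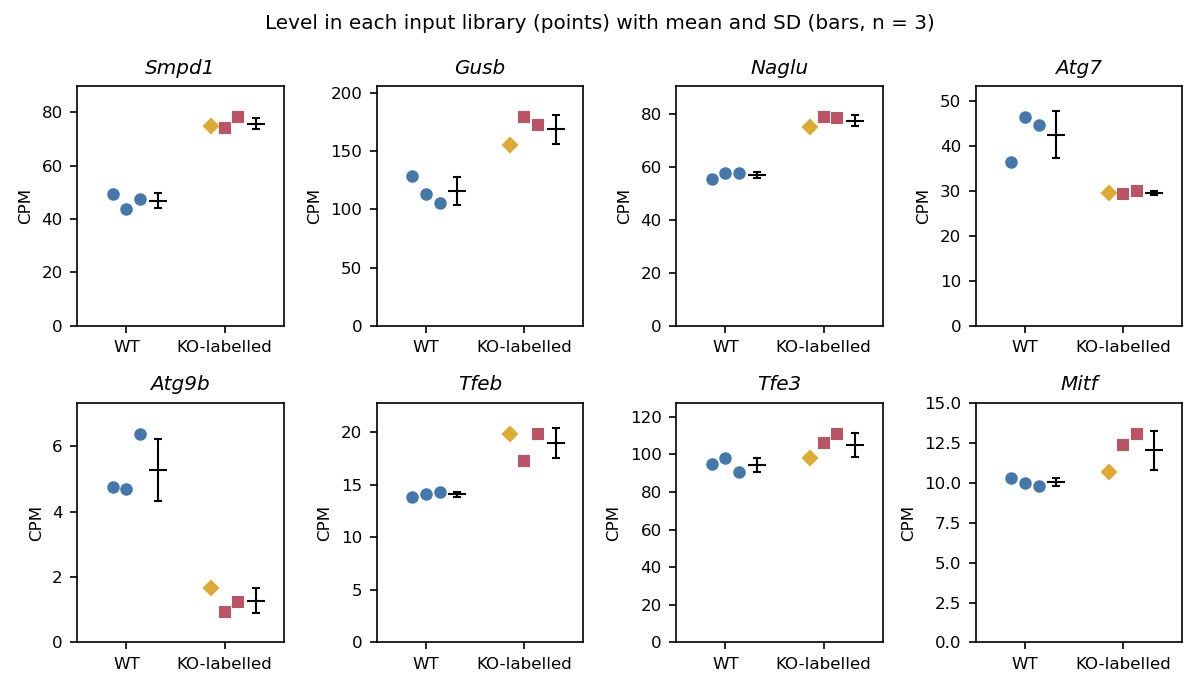
CPM in each input library for the 5 called genes and the 3 transcription factors (circles WT, diamond KO-labelled replicate 1, squares replicates 2 and 3), with mean and SD over n = 3 beside the points. Smpd1, Gusb and Naglu are higher and Atg7 and Atg9b lower in every KO-labelled library, Tfeb and Mitf are higher without passing the test, and 1 KO-labelled library of Tfe3 is within the WT range.

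Position of KO-labelled replicate 1 differed between these genes. On the log2 scale, taking WT as 0% and the mean of KO-labelled replicates 2 and 3 as 100%, it was at 101% for Atg7, 97.0% for Smpd1, 86.0% for Naglu, 72.1% for Atg9b and 70.3% for Gusb. For the proteases Ctsz and Ctsb it was at 28.1% and 23.7%, and for Npc2 at 10.8%. Such positions did not set the called genes apart: Tfeb (126%), Map1lc3b (109%), Atg16l1 (95.3%), Ulk1 (80.3%) and others were not called.

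Other genes of the pathway, 125 on 7 lists, were measured to place these 39. Of these, 121 were tested, 3 rose (2.48%, against 2.99% of all genes tested) and 1 fell (0.826%, against 1.54%). The median log2 fold change was -0.02. Manba, a lysosomal beta-mannosidase, was at 68.5, 57.4 and 56.1 CPM in WT and 92.6, 105 and 106 CPM in KO-labelled libraries (log2 fold change 0.74 with SE 0.10, edgeR adjusted p = 0.0227). Lipa, the acid lipase that frees cholesterol from its esters, was at 90.7, 86.7 and 86.0 CPM in WT and 122, 122 and 128 CPM in KO-labelled libraries (log2 fold change 0.50 with SE 0.06, edgeR adjusted p = 0.0227). Gnptab, a subunit of the enzyme that adds the mannose-phosphate tag that routes hydrolases to lysosomes, was at 50.2, 49.1 and 52.7 CPM in WT and 63.0, 78.5 and 84.3 CPM in KO-labelled libraries (log2 fold change 0.57 with SE 0.11, edgeR adjusted p = 0.0417). In all 3 the groups were apart.

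The gene that fell was Ctso, a cysteine cathepsin, at 13.8, 9.86 and 10.7 CPM in WT and 6.47, 6.89 and 5.39 CPM in KO-labelled libraries (log2 fold change -0.87 with SE 0.18, edgeR adjusted p = 0.0426). By list, 2 of 29 tested lysosomal enzymes and activators rose and 1 fell, 1 of 18 genes of sorting and fusion rose, and none of 13 membrane proteins, 14 V-ATPase subunits, 14 genes of mTORC1 at the lysosome, 27 autophagy genes or 6 cargo receptors was called. Without KO-labelled replicate 1 the calls were 22 higher (18.2%) and 26 lower (21.5%), against 19.3% and 16.1% of all genes in that fit. Of the higher, 12 were enzymes and activators (12 of 29 tested, with 5 lower). That fit kept all 4 calls. Without WT replicate 1 the adjusted p was 0.0399 for Manba, 0.0509 for Lipa, 0.0905 for Gnptab and 0.083 for Ctso, and without WT replicates 2 or 3 or KO-labelled replicates 2 or 3 none of the 4 was called (0.108 to 0.179).

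Peaks of m6A were listed for most of the 39 genes. The WT list held 53 peaks in 32 of them (82.1%, 95% exact Clopper-Pearson interval 66.5% to 92.5%, for counting error only). Of all genes tested 48.7% had a WT m6A peak, and of those at a mean of at least 10 CPM 74.9%, which lies within the interval. Genes above that minimum were not matched to the 39 by level. The KO-labelled list held 51 peaks in 29 genes (74.4%, interval 57.9% to 87.0%), against 45.0% of genes tested and 71.8% of those at a mean of at least 10 CPM. The YTHDF2 RIP list held 72 peaks in 26 genes (66.7%, interval 49.8% to 80.9%), against 34.3% of genes tested and 52.3% of those at a mean of at least 10 CPM. Each list stands for a whole group, with no replicate error, and the value in its score column, read as a p-value from its range, is the authors' own.

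Of the 53 WT m6A peaks, 43 (81.1%, interval 68.0% to 90.6%) shared an exonic base with a KO-labelled peak, where 80.3% of all WT peaks did. Conversely, 44 of the 51 KO-labelled peaks overlapped a WT peak (86.3%, against 89.3% of all). No gene had m6A only in the KO-labelled list. In the WT list alone were Lamp2 (2 peaks, scores 1.6e-24 and 3.2e-13), Atp6v1a (1 peak of 91 bases in the 3′ UTR, score 1.3e-14) and Cln3 (1 peak of 60 bases in the 5′ UTR, score 6.6e-06). With 1 list a genotype, this difference between the lists has no replicate check. Cln3 was at only 0.413 to 0.990 CPM in WT. Its exons share 442 bases with Apobr on the opposite strand, which had a mean of 7.82 CPM. Any part of Apobr in the Cln3 peak was not tested. Of the called genes, Smpd1 had a KO-labelled peak in the 3′ UTR (score 2.5e-14), beside its other peaks, with no WT peak at that place.

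The m6A peak centres that could be placed lay more often in the 3′ UTR than those of all peaks. A centre could be placed on the main coding transcript for 38 of the 53 WT peaks: 25 (65.8%) fell in the 3′ UTR, 10 (26.3%) in coding sequence and 3 (7.89%) in the 5′ UTR. Of all 19236 WT peaks, 16295 centres were placed, and of these 34.9% fell in the 3′ UTR and 61.1% in coding sequence. A larger part of the peaks of the 39 genes is thus missing from the shares. In the KO-labelled list 26 of 39 centres (66.7%) were in the 3′ UTR, against 33.8% of all. RIP centres were placed the other way: 40 of 59 (67.8%) lay in coding sequence, where 56.5% of all RIP centres did, and 18 (30.5%) in the 3′ UTR, where 41.0% did. Within 200 bases of the stop codon lay 12 of the 38 WT centres (31.6%, against 25.7% of all) and 9 of the 39 KO-labelled centres (23.1%, against 25.6%). These shares are descriptions, since peaks of 1 gene share its transcript and no test was made.

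**Figure D4:**
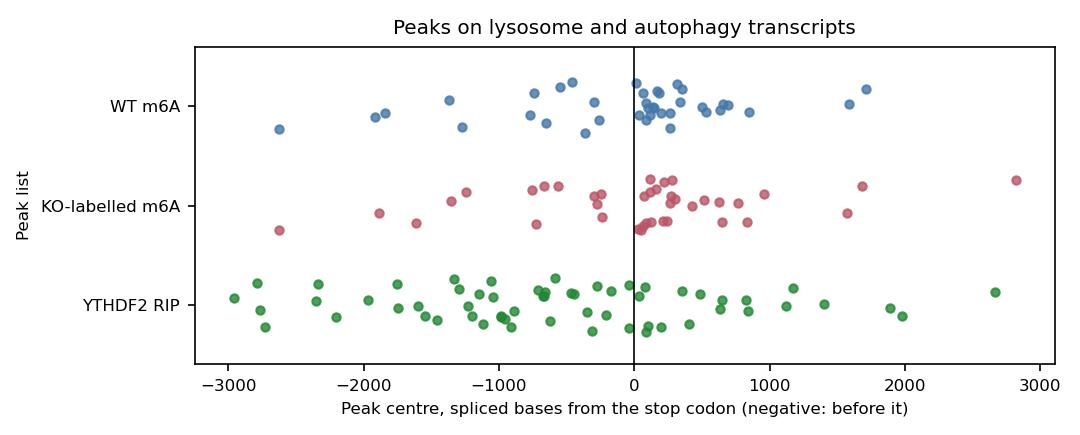
Peak centres on the main coding transcripts of the 39 genes, in spliced bases from the stop codon (negative values are before it), for WT m6A, KO-labelled m6A and YTHDF2 RIP; the vertical scatter within a list has no meaning. More m6A centres lie after the stop codon than before it (25 of 38 in WT and 26 of 39 in the KO-labelled list are in the 3′ UTR), and most RIP centres (40 of 59) are in coding sequence.

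Overlap of the m6A and RIP peaks was partial. Of the 53 WT m6A peaks, 22 (41.5%, interval 28.1% to 55.9%) shared a base with a RIP peak, against 48.3% of all, and of the 72 RIP peaks 18 did with a WT m6A peak (25.0%, interval 15.5% to 36.6%, against 34.2%). The 6 genes with most shared bases were Mitf (869 bases), Naglu (807), Ctsl (660), Atg16l1 (422), Lamp2 (331) and Tpp1 (270). In Mitf both WT m6A peaks, in the 3′ UTR, lay whole inside a RIP peak of 3023 exonic bases. In Naglu the single m6A peak, over the last part of the coding sequence (score 1e-113 in WT and 1e-129 in the KO-labelled list), lay whole inside a RIP peak of 896 bases (score 1.3e-19). In Ctsl a RIP peak of 1317 bases covered 449 of 449 bases of the 3′ UTR m6A peak (score 1e-231) and 211 of 240 bases of the peak in the coding sequence (1e-230). Atg16l1 had 4 WT m6A peaks and 6 RIP peaks, Lamp2 2 and 6, and Tpp1 2 and 3. Of the other genes that rose, Gusb had 2 WT m6A peaks, in the 3′ UTR (score 2e-88) and off its main coding transcript (2e-35). Smpd1 also had 2, in coding sequence (6.3e-56) and in the 5′ UTR (2e-11). None of these 4 shared a base with a RIP peak.

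A WT m6A peak and a RIP peak were both listed for 24 of the 39 genes. Of these, 3 rose and none fell, with a median log2 fold change of 0.06. Of all 5544 such genes tested 5.32% rose and 1.48% fell, with a median of 0.09. With m6A alone were 8 genes, none of them called (all such genes: 3.38% higher and 1.89% lower). With a RIP peak alone were Lamp1 and Atg7, of which Atg7 fell (all: 2.92% and 2.40%). With neither were Hexa, Psap, Atp6v0d1, Atp6v1h and Atg9b, of which Atg9b fell (all: 1.37% and 1.35%). Calls of 5 genes are too few to read a pattern over these classes. Without KO-labelled replicate 1 the calls were 7 higher and 4 lower of the 24 genes, 3 and 0 of the 8, 0 and 1 of the 2, and 2 and 2 of the 5. In that fit 19.3% of all genes were called higher and 16.1% lower.

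The GGACT form of the m6A consensus was searched on the sense strand of the spliced transcript. It was present within 100 bases of the centre in 13 of 37 WT windows of these genes (35.1%), against 28.4% of all WT windows. Sites in WT m6A peaks are given for Naglu and Gusb, which rose, and for the 3 cathepsins with a listed site. A site is also given for Atg16l1, in which a RIP peak shared 210 of the 270 bases of the site's m6A peak. These cathepsins and Atg16l1 were not called with all 6 libraries. Smpd1, with the largest rise, had no such site listed in its WT m6A peaks. Other members with a listed site were Atg9a, Gaa, Gla, Mcoln1 and Neu1, none of them called with all 6 libraries. The list does not cover every WT m6A peak. It holds sites only for peaks with a centre placed on the main coding transcript. It also holds none for Npc1 or Atg12, which had such peaks. Absence from the list is therefore not evidence that a member lacks a site. A link between the motif and the calls was not tested. Each site is given as 30 bases of GRCm38 transcript from GENCODE M21, 5′ to 3′, with GGACT in capitals. The sites of Naglu and Atg16l1 are coding and the others lie in the 3′ UTR. That of Atg16l1 crosses a splice junction, so its coordinates span an intron. The m6A peak of this site is 1 unbroken block that ends at 87767143, so the letters past the junction lie outside the peak.
Naglu, chr11:101077200-101077229, plus strand: aagcaactggcaGGACTggtggctgattac
Atg16l1, chr1:87767037-87771400, plus strand: agagaatgagaaGGACTccaggaggcgtca
Gusb, chr5:129989408-129989437, minus strand: actgatacaaggGGACTttagaagtgacat
Ctsl, chr13:64364064-64364093, minus strand: tagcggtaatgaGGACTtatggacactatg
Ctsz, chr2:174427738-174427767, minus strand: ggaccagagtgtGGACTgcatcccgagagg
Ctsb, chr14:63142671-63142700, plus strand: gctttgactgcaGGACTtccaaaagaacga
A match is a description of the letters, and no methylated base was measured at it.

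Promoters were searched for the E-box that TFEB, TFE3 and MITF bind, since the transcription factors themselves are among the genes. RefSeq promoter windows (GRCm38.p6, 250 bases before to 50 after a start) were matched by symbol for 32 of the 39 genes, with 40 windows. The letters CACGTG, on either strand, were in 14 of the 40 (35.0%), against 7.15% of all 32851 windows. The longer form TCACGTG, on either strand, which contains CACGTG, was in 12 of the 40 (30.0%), against 3.77% of all. All windows were of 27025 genes, more than the 18969 tested, and no share over tested genes alone was taken. The 12 genes with it were Lamp1, Mcoln1, Cln3, Ctsa, Ctsd, Gla, Glb1, Gaa, Naglu, Atp6v0d1, Atp6v1a and Atg7. Starts are those of RefSeq, and the motif of Naglu, Atg7, Atp6v1a, Cln3 and Ctsa lay inside the gene's GENCODE coordinates. For Cln3 and Ctsa the window at the outermost start had no CACGTG. Of the 12 genes, Naglu rose and Atg7 fell, with a median log2 fold change of -0.03. Of the 20 matched genes without it, 2 rose and 1 fell, with a median of 0.11. Of all genes tested 2.99% rose and 1.54% fell. Without KO-labelled replicate 1 the calls were 1 higher and 2 lower of the 12, and 9 higher and 5 lower of the 20. In that fit 19.3% of all genes were called higher and 16.1% lower. The median was thus lower with the motif than without it, and no test was made of that difference.

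Windows of glycosidase, membrane, protease, pump and autophagy genes are given where a T precedes CACGTG on the gene's strand, with the E-box in capitals. They were chosen for these letters, so the letters they share come from the choice. Each is 30 bases of the gene's strand, and the E-box begins at positions from -227 (Gla) to -3 (Atp6v0d1), counted in bases from the RefSeq start. For Ctsa, Atp6v1a and Atg7 the E-box lies inside the gene's GENCODE coordinates.
Lamp1, chr8:13159088-13159117, plus strand: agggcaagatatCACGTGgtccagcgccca
Mcoln1, chr8:3500436-3500465, plus strand: ggtcgcgcttgtCACGTGttcagttcaggc
Ctsa, chr2:164833749-164833778, plus strand: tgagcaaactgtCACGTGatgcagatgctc
Gla, chrX:134601215-134601244, minus strand: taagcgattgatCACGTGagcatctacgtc
Glb1, chr9:114401018-114401047, plus strand: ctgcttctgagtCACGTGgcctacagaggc
Gaa, chr11:119267811-119267840, plus strand: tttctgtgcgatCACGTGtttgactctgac
Atp6v0d1, chr8:105566050-105566079, minus strand: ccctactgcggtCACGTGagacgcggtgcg
Atp6v1a, chr16:44139373-44139402, minus strand: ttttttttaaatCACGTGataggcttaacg
Atg7, chr6:114670952-114670981, plus strand: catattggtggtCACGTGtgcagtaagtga
In each of these windows, by choice, a T precedes the capitals, which makes the longer form. The windows of Cln3 and Ctsd are not printed. There an A follows CACGTG, which makes the longer form on the other strand.
For Naglu, which rose, the 250 bases before the RefSeq start are given whole, with its E-box at -73 from that start. This E-box lies inside the gene's GENCODE coordinates, which begin at 101070012.
Naglu, chr11:101069844-101070093, plus strand: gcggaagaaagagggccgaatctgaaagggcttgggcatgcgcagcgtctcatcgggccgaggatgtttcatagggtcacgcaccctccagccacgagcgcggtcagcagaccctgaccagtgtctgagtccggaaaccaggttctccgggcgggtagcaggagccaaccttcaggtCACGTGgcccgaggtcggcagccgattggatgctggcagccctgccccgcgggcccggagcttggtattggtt

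Exons of 17 members overlap another annotated gene. Reads of bases shared on opposite strands cannot be assigned where the strand of counting is not given. Strand alone does not assign reads of bases shared on the same strand. For Becn1 43.9% of the exonic bases are shared with Cntd1 on the opposite strand, for Ctsd 34.4% with Gm49369 on the same strand, for Atg9a 31.8% with Gm29253 on the same strand and for Ctsl 26.8% with Gm47123 on the opposite strand. Fdft1, on the opposite strand of Ctsb over 12.8% of its bases, was at 142, 145 and 138 CPM in WT and 171, 131 and 135 CPM in KO-labelled libraries. Smpd1, Gusb, Naglu and Atg7 have no such overlap.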

How the data were processed

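Polyadenylated input RNA of 3 WT and 3 Ythdf2-KO libraries was measured as gene counts, and m6A and YTHDF2 binding as peaks. The authors deposited whole-number read counts per gene, not normalized, with 0 columns of other samples. Each deposited peak list gives exonic blocks under an Ensembl identifier with a score, read here as a p-value from its values alone. The submitters' processing notes name HISAT2, HOMER, ChIPseeker and mm10 without a role for each. No source used here gives the counter, its strand setting, the peak caller or how libraries were combined into a list.

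Counts were tested with edgeR 4.0.16 (R 4.3.3; TMM, filterByExpr, quasi-likelihood F test, no covariate, Benjamini-Hochberg adjustment at 0.05 over 18969 genes). CPM use TMM-scaled library sizes, ± is the SD, and the SE of a log2 fold change is its size over the square root of F. Fold changes are KO-labelled over WT. On simulated counts of these 18969 genes with 200 changed, the test recovered 81.0% of 2-fold and 94.0% of 4-fold changes, with 16 of 191 calls on unchanged genes, and made 0 calls where none was changed. The changed genes were drawn above a minimum level. All KO libraries were simulated alike, which KO-labelled replicate 1 was not. Changes below 2-fold were not simulated, and all called members except Atg9b changed by less than that. Peaks overlapped if they shared 1 exonic base on the same strand. Centres were placed on the transcript with the longest coding sequence in GENCODE M21 (GRCm38, the assembly of mm10), which held 55141 of the 55401 genes of the table.

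The members and lists were chosen with earlier results of these data known. Named in full were called members, the 6 highest per kilobase in WT, members without overlap and a fold of at least 1.5, the transcription factors, called genes of the other lists, the 6 members with most m6A bases shared with RIP peaks, and those with m6A in 1 genotype list. Values of other members (groups without overlap, calls without KO-labelled replicate 1, Atg9a as the paralog of Atg9b) were chosen after they were seen. Alternatives were DESeq2 1.42.0, other scaling factors, no filter, a replicate block, leaving out each library, and stricter scores and overlaps. Replicate numbers were not used as pairs in the main fit. Same-numbered WT and KO-labelled libraries had correlations of 0.05, 0.11 and 0.05 in their deviations from the group means. Libraries of unlike number had -0.09 to 0.02, and with 3 libraries a group such values do not settle whether the numbers pair them. Signal per m6A and RIP library was not analysed here.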

Additional observations from a re-analysis of the deposited data

How the results depend on the processing

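Counts of called genes depended on the libraries and the tool. Among the 39 genes, 3 higher and 2 lower with all 6 libraries, leaving out each library in turn gave 0 to 12 higher and 0 to 7 lower, the largest counts without KO-labelled replicate 1. Among the other 121 pathway genes tested, 3 higher and 1 lower, it gave 0 to 22 and 0 to 26. DESeq2 called 6 of the 39 higher, adding Ctsz, Hexa and Tfeb, and 14 higher and 11 lower of the other genes. Over all genes it called 2209 higher and 1332 lower. Without the filter 1 of the 39 was higher and 1 lower, and 0 of the others were lower, with 35049 genes tested. Upper-quartile factors gave 3 others lower.

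A replicate block, fitted as an alternative, left 1 of the 39 higher (Smpd1) and 0 lower, and 0 higher and 0 lower of the others. It called 45 genes higher and 26 lower in all, and every library's deviations correlated best with those of its own number. RLE factors moved no count of these genes by more than 1.5 times.

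Single fold changes near 0 turned: with a library left out, Lamp1 (-0.03) ran from -0.062 to 0.022, above 0 on leaving out WT replicate 2 or KO-labelled replicate 1. Ctsl (0.04) ran from -0.0072 to 0.11, below 0 on leaving out WT replicate 1 or KO-labelled replicate 2, and was -0.047 with upper-quartile factors. The cause was not tested. The numbers of genes with m6A or RIP peaks and the share of WT peaks overlapped by KO-labelled peaks kept within 1.5 times or their interval under a score of at most 1e-05, an overlap of at least 50% of a peak and assignment by exon. Depth limits Cln3 and Atg9b most, and peaks have no replicate error.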
